A study of Mus musculus with 6 samples.

Results

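The comparison set 2 libraries of mouse epiphyseal chondrocytes given TGF-alpha together with gefitinib against 2 libraries given TGF-alpha alone, across all genes. The 4 libraries were chosen by their labels, out of 6 in the series, and no measured value entered the choice. All cells came from the femoral epiphysis of C57BL/6 mice and were grown as primary cultures. The labels give the animals as postnatal day 1, while the design text writes P2 without explaining it. The TGF-alpha group received 10 ng/ml of the ligand for 48 hours. The gefitinib group received 10 µM gefitinib for 30 minutes and then both agents for 48 hours. The remaining 2 libraries, the control, received neither agent and were used as the reference level. Their vehicle is given as 0.1% DMSO in the protocols and as PBS in the design text. A group given gefitinib without TGF-alpha was not analysed here, so an action of the drug apart from the added ligand cannot be told apart in these samples. Nothing in the labels says that the libraries of a group came from separate animals or cultures, so the p-values cover no more than sample-to-sample spread, part or all of which may be technical.

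TGF-alpha binds EGFR, the epidermal growth factor receptor, a receptor tyrosine kinase that signals through the RAS-ERK and PI3K-AKT cascades. Gefitinib blocks the kinase site of EGFR. ERK signalling induces early transcription factors and also its own inhibitors, among them Sprouty and Spred proteins and dual-specificity phosphatases. Epiphyseal chondrocytes lay down the collagen type II and aggrecan matrix of the cartilage ends of long bones, and EGFR ligands are known to hold back that matrix programme and to promote proliferation.

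Total counts ran from 12317407 to 16096263 per library over all 6. Of 44788 genes in the table, 15362 had enough counts to be tested. Replicates differed by more than counting noise, at 3.03 to 3.83 times the variance expected from counting alone, so none was a copy of another. The 18S ribosomal RNA gene Rn18s-rs5 took 1.206% and 0.8507% of counts with TGF-alpha, 0.6567% and 0.7857% with gefitinib added, and 1.393% and 1.359% in the controls. Mitochondrially encoded mRNAs took 0.8116% and 0.8407% with TGF-alpha and 0.9209% and 1.008% with gefitinib added. The part of these shares in the results was not tested. The 7S RNA genes Rn7s1 (log2 fold change -3.27 ± 0.65, adjusted p = 0.00115) and Rn7s2 (log2 fold change -2.44 ± 0.65, adjusted p = 0.00914) also fell.

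Adding gefitinib changed 5217 genes (34% of those tested) at a Benjamini-Hochberg adjusted p under 0.05 in edgeR's quasi-likelihood test. A gene past this threshold is written as called. Of the 5217, 2618 rose (17% of tested genes) and 2599 fell (16.9%). The counts of every gene list that follows are to be read against these 2 shares. Most changes were modest: the median change was 1.39-fold among genes that rose and 1.5-fold among those that fell. At least 2-fold changes were seen for 524 genes that rose and 686 that fell, and at least 4-fold changes for 135 and 163. The median log2 fold change of all tested genes was 0.0131. The values of both groups did not overlap for 5215 of the 5217 genes. Genes chosen by a small p-value mostly separate in this way, so this adds no support to the calls. CPM is the count of a gene per 1e6 counts of its library after the library total is scaled by edgeR's TMM factor. Summed over the 5217 genes, the difference in CPM was 111391 CPM for those that rose and -113206 CPM for those that fell. The share of genes called rose with level, from 12.7% of genes below 1 CPM to 59.9% of those above 100 CPM, where counts are more precise. Protein-coding entries were called at 38.1% and entries typed as ncRNA at 14.1%. For 1945 genes (12.7%) the 95% interval of the change lay wholly within 1.2-fold. In the values that follow, CPM are given for each library, log2 fold changes are gefitinib added against TGF-alpha unless the control is named, and ± gives the standard error of the fit. A value alone in brackets is a log2 fold change. In bulk libraries, fewer cells of a type and less RNA per cell cannot be told apart.

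**Figure D1:**
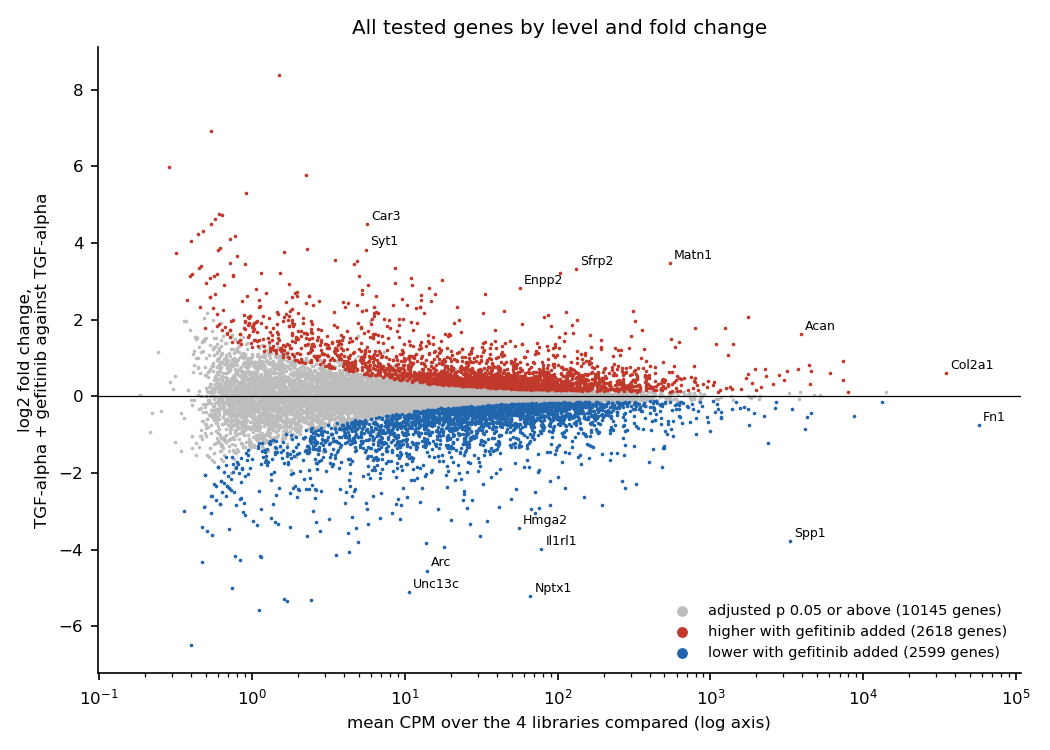
Each point is 1 of 15362 tested genes, with its mean CPM over the 4 libraries (log axis) against its log2 fold change, gefitinib added against TGF-alpha alone. The 2618 genes that rose and the 2599 that fell lie on both sides of 0 at all levels, with Car3 and Matn1 among the rises and Nptx1 and Spp1 among the falls.

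Against the control, the same gefitinib libraries differed in 1463 genes (9.52%). Counts of list members called against the control are to be read against this share, which covers both directions. Those list counts were not repeated with other methods, and DESeq2 called 951 genes against the control in place of 1463. This second comparison shares its 2 gefitinib libraries with the first, and its values are given beside the first ones only as a reference level.

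Most called genes of the receptor's own pathway fell. Of 8 tested EGFR-family receptors and ligands, 4 fell and 1 rose, with a median log2 fold change of -0.346. The ligand gene Hbegf, coding for heparin-binding EGF-like growth factor, stood at 33.9 and 38.7 CPM with TGF-alpha and 11 and 14.5 with gefitinib added (log2 fold change -1.52 ± 0.13, adjusted p = 4.94e-07). Ereg, the gene of the ligand epiregulin, stood at 9.52 and 10.5 CPM with TGF-alpha and 1.3 and 1.28 with gefitinib added (log2 fold change -2.95 ± 0.26, adjusted p = 6.72e-07). For both ligands the gefitinib libraries lay far under the TGF-alpha libraries and near the controls (10.6 and 11.8 CPM for Hbegf and 1.33 and 1.97 CPM for Ereg). The receptor gene Egfr itself measured 72 and 70.3 CPM with TGF-alpha and 54.9 and 53.9 with gefitinib added (log2 fold change -0.39 ± 0.066, adjusted p = 3.39e-04), and its control libraries read 69.2 and 65.1 CPM. Egfr was therefore lower with gefitinib than in either other group (log2 fold change -0.30 ± 0.066, adjusted p = 0.00926 against the control). Tgfa, the gene of the ligand added to the medium, was the single member that rose, from 27.8 and 29 CPM to 37.3 and 37.9 CPM (log2 fold change 0.40 ± 0.087, adjusted p = 0.00219).

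The negative regulators of EGFR and ERK went the same way: 13 of 16 fell and 2 rose, with a median of -1.05. Dusp6, the cytoplasmic phosphatase of ERK (chromosome 10, 99263231 to 99267489, GRCm38), measured 48.4 and 49.2 CPM with TGF-alpha and 5.0 and 4.72 with gefitinib added (log2 fold change -3.32 ± 0.12, adjusted p = 4.40e-11). Errfi1, which codes for the EGFR-binding inhibitor MIG6, measured 125 and 114 CPM with TGF-alpha and 15 and 16.3 with gefitinib added (log2 fold change -2.93 ± 0.083, adjusted p = 3.56e-12). Spry2, a Sprouty inhibitor of RAS-ERK signalling, measured 35.3 and 33.5 CPM with TGF-alpha and 10.4 and 9.59 with gefitinib added (log2 fold change -1.78 ± 0.11, adjusted p = 1.49e-08). Spred3 belongs to the related Spred family and measured 26.3 and 25.8 CPM with TGF-alpha and 8.98 and 8.96 with gefitinib added (log2 fold change -1.54 ± 0.13, adjusted p = 2.67e-07). In all of these the gefitinib pair sat at or a little under the control pair; Dusp6, for example, read 5.54 and 6.56 CPM there. Only 2 of the 16 were called lower than the control. The 2 that rose, named after their values were seen, were Lrig3 (0.18 ± 0.048) and Dusp8 (0.59 ± 0.15).

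Among 27 transcription factors known to respond to ERK, 19 fell and 2 rose, with a median of -1.0. Fosl1, the FRA1 subunit of AP-1, measured 39.7 and 33.4 CPM with TGF-alpha and 4.04 and 3.68 with gefitinib added (log2 fold change -3.24 ± 0.15, adjusted p = 4.38e-10). Etv5, an ETS factor, measured 74 and 71.8 CPM with TGF-alpha and 9.46 and 10.2 with gefitinib added (log2 fold change -2.90 ± 0.095, adjusted p = 1.04e-11), and its control libraries read 21.9 and 22.4 CPM. Etv5 thus ended under the control as well as under the TGF-alpha level (log2 fold change -1.18 ± 0.10, adjusted p = 5.60e-06). Hmga2, a chromatin protein of growing mesenchymal cells (chromosome 10, 120361268 to 120476469), measured 108 and 96.2 CPM with TGF-alpha and 9.8 and 9.11 with gefitinib added (log2 fold change -3.43 ± 0.10, adjusted p = 3.56e-12). Its relative Hmga1 measured 136 and 133 CPM with TGF-alpha and 18.6 and 16.7 with gefitinib added (log2 fold change -2.92 ± 0.090, adjusted p = 6.34e-12). The early gene Egr1 measured 243 and 272 CPM with TGF-alpha and 48.1 and 34.2 with gefitinib added (log2 fold change -2.64 ± 0.16, adjusted p = 7.81e-09), and the pairs themselves were spread. The factors that rose, named after their values were seen, were Jund (0.34 ± 0.066) and the stress-induced Atf3 (2.34 ± 0.18). None of the 20 factors with a promoter window held the AP-1 letters TGANTCA in the 250 bases before the start, against 4.15% of 9760 promoters of tested genes.

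Of 9 ADAM and iRhom genes, a list that includes proteases releasing EGFR ligands from the membrane, 5 fell and none rose. Adam8 measured 59.9 and 55.3 CPM with TGF-alpha and 4.93 and 4.16 with gefitinib added (log2 fold change -3.65 ± 0.12, adjusted p = 1.38e-11) and stood under its control level of 8.74 and 8.53 CPM (log2 fold change -0.92 ± 0.15, adjusted p = 0.00119). Adam9 (-0.42 ± 0.053), Adam19 (-0.49 ± 0.10) and Rhbdf1 (-0.52 ± 0.064) fell by smaller amounts, each within 2-fold. The other member called lower was Adam17.

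**Figure D2:**
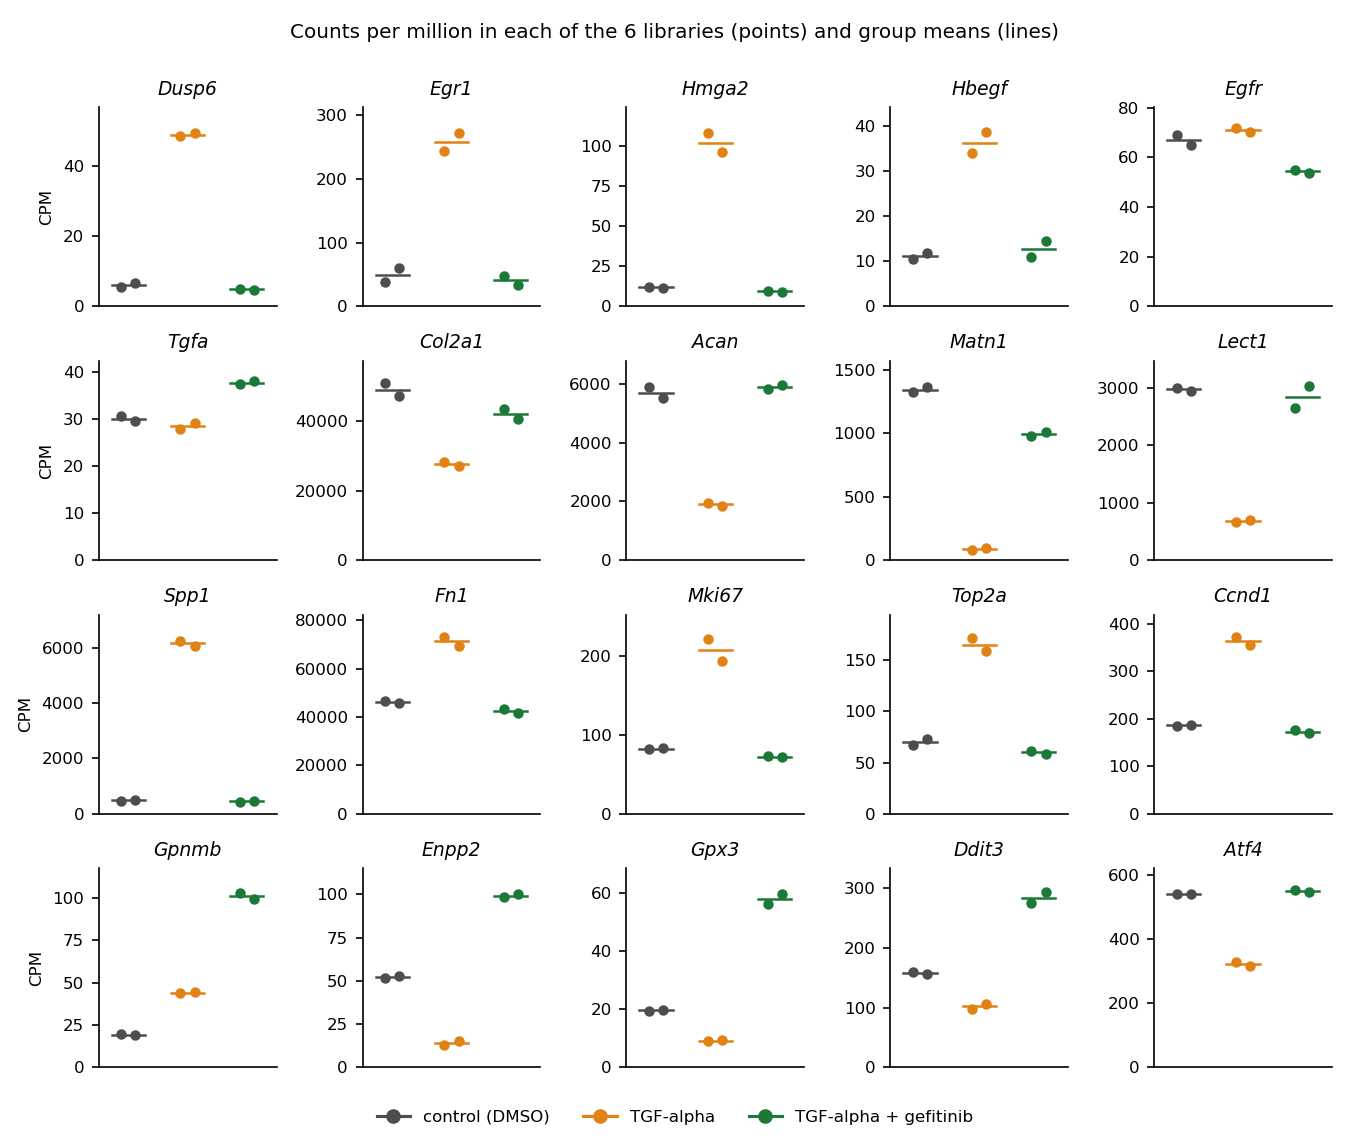
Each panel plots 1 gene in CPM (axis from 0) in the 6 libraries, 2 points per group, with lines at the group means. The gefitinib points lie near the control points for Dusp6, Spp1 and Acan, under them for Egfr, and above both other groups for Gpnmb, Enpp2, Gpx3 and Ddit3.

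Most genes of the cartilage matrix rose. Of 28 tested genes for cartilage collagens, proteoglycans and matrix proteins, 23 rose and 3 fell, with a median log2 fold change of 1.09. Col2a1, the chain of collagen type II (chromosome 15, 97975602 to 98004724, GRCm38), measured 28129.6 and 27134 CPM with TGF-alpha and 43588 and 40569.8 with gefitinib added (log2 fold change 0.61 ± 0.047, adjusted p = 1.31e-07). Acan, the gene of the proteoglycan aggrecan, measured 1960.2 and 1842 CPM with TGF-alpha and 5821 and 5969 with gefitinib added (log2 fold change 1.63 ± 0.046, adjusted p = 3.56e-12). Matn1, coding for the cartilage linker matrilin 1 (chromosome 4, 130944385 to 130955476), measured 79.2 and 98.4 CPM with TGF-alpha and 975 and 1010.1 with gefitinib added (log2 fold change 3.48 ± 0.075, adjusted p = 2.22e-13). Lect1, coding for the antiangiogenic cartilage protein chondromodulin, measured 660.4 and 703 CPM with TGF-alpha and 2645 and 3035 with gefitinib added (log2 fold change 2.06 ± 0.059, adjusted p = 3.56e-12). In each of these genes both gefitinib libraries lay above both TGF-alpha libraries, but 5215 of the 5217 called genes were likewise without overlap. Return to the control level differed between genes. Acan stood at 5821 and 5969 CPM against 5897 and 5529.6 CPM in the controls (log2 fold change 0.045 ± 0.045, adjusted p = 0.61), while Col2a1 stood at 43588 and 40569.8 CPM against 50966 and 47236 CPM (log2 fold change -0.22 ± 0.047, adjusted p = 0.00733) and Matn1 at 975 and 1010.1 CPM against 1323 and 1362 CPM (log2 fold change -0.44 ± 0.065, adjusted p = 5.52e-04).

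The other collagen chains of the cartilage fibril moved the same way. Col9a3, of the fibril-associated collagen type IX, measured 109.5 and 112 CPM with TGF-alpha and 512 and 519 with gefitinib added (log2 fold change 2.22 ± 0.051, adjusted p = 4.16e-13), and Col9a1 of the same trimer rose less (1.09 ± 0.043). Col11a1 measured 5202 and 5076 CPM with TGF-alpha and 9694 and 9628 with gefitinib added (log2 fold change 0.91 ± 0.039, adjusted p = 2.43e-10), and Col11a2, which joins it in the core of the fibril, rose more (1.78 ± 0.051). The fibril-binding proteoglycan Fmod, fibromodulin, measured 759.7 and 813 CPM with TGF-alpha and 2028 and 2004 with gefitinib added (log2 fold change 1.36 ± 0.045, adjusted p = 1.10e-11). The 3 members that fell, named after their values were seen, were Matn2 (-0.72 ± 0.080), Cytl1 (-2.17 ± 0.18) and Otor (-1.05 ± 0.33).

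Transcription factors of chondrogenesis were mixed, with 5 of 21 higher, 6 lower and a median of -0.18. Sox6, a partner of SOX9, rose (log2 fold change 0.48 ± 0.052, adjusted p = 4.31e-06) and Sox5, its close relative, fell (log2 fold change -1.01 ± 0.069, adjusted p = 3.05e-08). Sox5 measured 96.1 and 89.7 CPM with TGF-alpha and 46.5 and 45.5 with gefitinib added, so the falls in this list were not all small. Sox8 measured 2.74 and 3.64 CPM with TGF-alpha and 8.91 and 9.59 with gefitinib added (log2 fold change 1.53 ± 0.22, adjusted p = 8.65e-05). Trps1, a GATA-type repressor of chondrocyte maturation, fell from 131 and 127 CPM to 90.4 and 89.4 CPM and below its control level of 122 and 125 CPM (log2 fold change -0.46 ± 0.055, adjusted p = 1.01e-04). Sox9, the master regulator named after its values were seen, measured 272 and 268 CPM with TGF-alpha and 316 and 304 with gefitinib added (log2 fold change 0.20 ± 0.046, adjusted p = 0.00375), a smaller change than that of Col2a1 or Acan.

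Counted in reads, the largest gain and the largest loss were both in matrix genes. CPM is not corrected for transcript length, so these values do not rank genes by molecules. Col2a1 gained the most, 14447 CPM between group means, followed by Col11a1 with 4522 CPM and Acan with 3994 CPM. Fn1, the gene of fibronectin (chromosome 1, 71585473 to 71653280), lost the most. It measured 73300.4 and 69305 CPM with TGF-alpha and 43163 and 41766 with gefitinib added (log2 fold change -0.75 ± 0.040, adjusted p = 2.67e-09), a difference of -28838 CPM, and read 46732 and 46006 CPM in the controls. Spp1, the gene of osteopontin, a phosphorylated matrix protein of bone and inflamed tissue (chromosome 5, 104435111 to 104441053), measured 6249 and 6074 CPM with TGF-alpha and 441 and 454 with gefitinib added (log2 fold change -3.78 ± 0.045, adjusted p = 2.31e-16). Penk, the proenkephalin gene, measured 5121 and 5573 CPM with TGF-alpha and 2845 and 3037 with gefitinib added (log2 fold change -0.86 ± 0.052, adjusted p = 8.62e-09). The gefitinib libraries lay under the TGF-alpha libraries in all 3 of these, and such separation held for nearly every called gene. App, the amyloid precursor protein gene, gained 2438 CPM and was the sole gene among the 12 largest gains that codes for no matrix protein or matrix chaperone. The ribosomal RNA gene Rn18s-rs5, whose shares are given above, also lost reads, but it was not called in DESeq2 (log2 fold change -0.52, adjusted p = 0.0963). The imprinted RNA gene H19 lost reads, from 13698 and 13957 CPM to 12400.4 and 12750.3 CPM (log2 fold change -0.14 ± 0.039, adjusted p = 0.0143). Without TGF-alpha replicate 2 the call for H19 was lost (adjusted p = 0.0837).

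**Figure D3:**
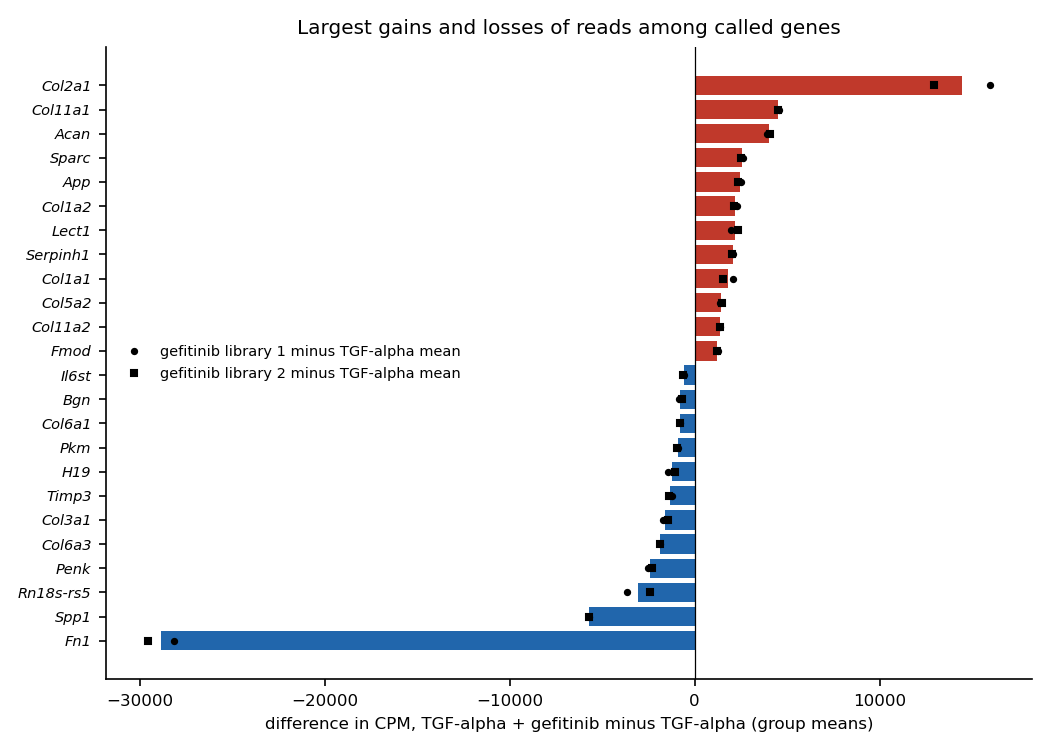
Bars give the difference in mean CPM, gefitinib added minus TGF-alpha alone, for the 12 called genes with the largest gain and the 12 with the largest loss. Points show each gefitinib library against the TGF-alpha mean; all lie on the same side of 0 as their bar, with Col2a1 at the top and Fn1 at the bottom.

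The fibrous collagens split, with 6 of 15 higher and 6 lower. Col5a1 (0.70 ± 0.048), Col5a2 (0.66 ± 0.044), Col1a1 (0.72 ± 0.052) and Col1a2 (0.43 ± 0.044) rose, the chains of the fibrils of types I and V. Col3a1 (-0.54 ± 0.056), Col6a3 (-1.21 ± 0.044) and Col16a1 (-0.91 ± 0.055) fell. Col6a3, of the beaded collagen type VI, measured 3439 and 3207 CPM with TGF-alpha and 1436 and 1431 with gefitinib added. Small leucine-rich proteoglycans also split, 4 higher and 4 lower of 8, and without TGF-alpha plus gefitinib replicate 2 only 2 were called higher. Podn, podocan, fell furthest, from 245 and 241 CPM to 79.7 and 79.9 CPM (log2 fold change -1.61 ± 0.053, adjusted p = 1.04e-11), and Omd, osteomodulin, rose (log2 fold change 0.72 ± 0.10, adjusted p = 3.68e-05). Among 24 matricellular and adhesive proteins 10 rose and 10 fell. The basement membrane protein gene Nid2 measured 351 and 357 CPM with TGF-alpha and 1234 and 1207 with gefitinib added (log2 fold change 1.78 ± 0.043, adjusted p = 6.56e-13) and the crosslinking oxidase Loxl3 measured 618 and 599 CPM with TGF-alpha and 230.2 and 243 with gefitinib added (log2 fold change -1.36 ± 0.048, adjusted p = 2.26e-11). Loxl4, an oxidase of the same family, moved the other way (log2 fold change 1.00 ± 0.047, adjusted p = 5.20e-10). The calcium-binding matrix gene Smoc2 rose from 55.6 and 53 CPM to 171 and 168 CPM (log2 fold change 1.64 ± 0.057, adjusted p = 1.77e-11).

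Of 19 basement membrane and Fraser complex genes, 10 rose and 4 fell. Fras1, whose protein anchors epithelia to the dermis, measured 1.66 and 1.38 CPM with TGF-alpha and 16.4 and 15 with gefitinib added (log2 fold change 3.36 ± 0.18, adjusted p = 3.00e-09). Col18a1 was the main exception, at 185 and 189.6 CPM with TGF-alpha and 35.9 and 35.8 with gefitinib added (log2 fold change -2.39 ± 0.066, adjusted p = 2.95e-12). Integrins and syndecans fell in 11 of 20 cases and rose in 3, with Itga3 (-0.84 ± 0.066), Itga11 (-0.74 ± 0.064), Sdc2 (-0.63 ± 0.046) and Sdc4 (-0.72 ± 0.047) among the falls. Of 31 genes for sulfated glycosaminoglycan synthesis, 12 rose and 7 fell. The sulfate transporter Slc26a2 measured 47.2 and 45.4 CPM with TGF-alpha and 102 and 101 with gefitinib added (log2 fold change 1.13 ± 0.063, adjusted p = 3.73e-09) and the chondroitin sulfotransferase Chst11 measured 116 and 115 CPM with TGF-alpha and 274 and 269.9 with gefitinib added (log2 fold change 1.24 ± 0.051, adjusted p = 1.43e-10). Xylt1, an enzyme that starts chains, rose as well (log2 fold change 0.99 ± 0.054, adjusted p = 3.24e-09), but its relative Xylt2 was called lower. Ugdh, which makes the UDP-glucuronate building block, fell (log2 fold change -0.85 ± 0.049, adjusted p = 5.23e-09). The falls numbered 4 in place of 7 without TGF-alpha replicate 1, without TGF-alpha plus gefitinib replicate 2, and in DESeq2. In the endoplasmic reticulum and collagen-processing list, 10 of 28 rose and 6 fell. The collagen chaperone Serpinh1 measured 3411 and 3637 CPM with TGF-alpha and 5597 and 5567 with gefitinib added (log2 fold change 0.66 ± 0.041, adjusted p = 1.30e-08) and the prolyl hydroxylase Lepre1 rose (log2 fold change 0.86 ± 0.052, adjusted p = 9.54e-09), but the prolyl hydroxylase subunits P4ha2 (-0.53 ± 0.047) and P4ha3 (-0.70 ± 0.059) fell.

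Mineralization and surface-zone genes did not follow the cartilage matrix as a group. Of 17 hypertrophy and mineralization genes, 5 rose and 7 fell. Enpp1, which makes the mineralization inhibitor pyrophosphate, measured 159 and 153 CPM with TGF-alpha and 21.9 and 21.9 with gefitinib added (log2 fold change -2.84 ± 0.075, adjusted p = 1.72e-12), and Ank, which exports it, measured 163 and 164 CPM with TGF-alpha and 48 and 51.6 with gefitinib added (log2 fold change -1.72 ± 0.062, adjusted p = 2.84e-11). Mgp, a vitamin K-dependent calcification inhibitor, fell too (log2 fold change -1.34 ± 0.054, adjusted p = 9.70e-11). Alpl, the alkaline phosphatase that removes pyrophosphate, moved the other way, from 4.25 and 4.07 CPM to 20.4 and 21.4 CPM (log2 fold change 2.33 ± 0.15, adjusted p = 1.63e-08). In the superficial zone and hyaluronan list 5 of 16 rose and 9 fell. Prg4, the gene of the joint lubricant lubricin, measured 101 and 80.2 CPM with TGF-alpha and 17.5 and 16.1 with gefitinib added (log2 fold change -2.43 ± 0.11, adjusted p = 4.29e-10) and the hyaluronan receptor Cd44 measured 147 and 148 CPM with TGF-alpha and 30.8 and 32.5 with gefitinib added (log2 fold change -2.22 ± 0.065, adjusted p = 4.02e-12). The secreted chaperone Clu rose from 38 and 42.6 CPM to 179 and 195 CPM (log2 fold change 2.21 ± 0.070, adjusted p = 7.75e-12). Without TGF-alpha plus gefitinib replicate 2, 2 of the 16 were called higher, and 3 in DESeq2.

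Matrix proteases and their inhibitors moved in different directions. Of 13 metalloproteinase and TIMP genes 4 rose and 6 fell, with Timp1 at 611 and 598 CPM with TGF-alpha and 183 and 184 with gefitinib added (log2 fold change -1.72 ± 0.051, adjusted p = 4.58e-12) and Timp3 (log2 fold change -0.43 ± 0.040, adjusted p = 9.72e-07) among the falls. Timp2 (log2 fold change 0.47 ± 0.041, adjusted p = 4.21e-07) and the membrane-type proteinase Mmp14 (log2 fold change 0.48 ± 0.044, adjusted p = 8.23e-07) rose, and both stood above the control (Timp2 0.32 ± 0.040, Mmp14 0.45 ± 0.044). In the ADAMTS family 8 of 14 rose and 1, Adamts10, fell (log2 fold change -0.67 ± 0.073, adjusted p = 4.73e-06). Adamts9 measured 30.9 and 33.7 CPM with TGF-alpha and 144 and 137 with gefitinib added (log2 fold change 2.13 ± 0.066, adjusted p = 6.59e-12). The plasminogen activation system fell in 6 of 7 cases and rose in 1. The activator Plat measured 64.3 and 61.3 CPM with TGF-alpha and 15.6 and 16.1 with gefitinib added (log2 fold change -1.99 ± 0.091, adjusted p = 4.06e-10), and the urokinase receptor Plaur 42.9 and 44.6 CPM with TGF-alpha and 22.7 and 16.3 with gefitinib added (log2 fold change -1.15 ± 0.13, adjusted p = 4.56e-06). Activator and receptor therefore fell in the same libraries, and the member that rose, named after its values were seen, was the neuronal inhibitor Serpini1 (1.26 ± 0.42), not called without TGF-alpha replicate 2 or without TGF-alpha plus gefitinib replicate 2.

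Proliferation genes fell as a block. All 32 genes of the G2/M and mitosis list were tested and all 32 fell, with a median log2 fold change of -1.30, whereas 16.9% of all tested genes fell. Mki67, the Ki-67 proliferation antigen, measured 222 and 194 CPM with TGF-alpha and 73.1 and 71.3 with gefitinib added (log2 fold change -1.52 ± 0.067, adjusted p = 2.70e-10). Top2a, the topoisomerase of dividing cells, measured 171 and 159 CPM with TGF-alpha and 61 and 58.7 with gefitinib added (log2 fold change -1.46 ± 0.066, adjusted p = 3.55e-10). Anln, the cytokinesis protein anillin, measured 114 and 107 CPM with TGF-alpha and 38.2 and 39.3 with gefitinib added (log2 fold change -1.51 ± 0.072, adjusted p = 6.09e-10), and the spindle motor Kif23 measured 46.4 and 43.7 CPM with TGF-alpha and 15.3 and 14.3 with gefitinib added (log2 fold change -1.60 ± 0.10, adjusted p = 1.18e-08). The gefitinib pairs lay close to the control pairs, for instance 66.9 and 73.3 CPM for Top2a, and 1 of the 32, Kif23, was called lower than the control (log2 fold change -0.37 ± 0.11, adjusted p = 0.0433).

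Genes of mitosis are known to carry the letters TTTGAA, called CHR, and CCAAT boxes near their starts. RefSeq promoter windows (GRCm38.p6) were matched for 26 of the 32 genes. CHR was found on either strand in the 250 bases before the start in 8 of the 26 (30.8%), against 10.0% of 9760 promoters of tested genes. CCAAT boxes were found in 20 of the 26 (76.9%), against 36.6%. These counts describe letters only and were not tested. The 150 bases before the start, in transcript direction, are printed for 3 genes chosen because they hold both motifs, with the CHR and CCAAT letters on either strand in capitals.
Top2a: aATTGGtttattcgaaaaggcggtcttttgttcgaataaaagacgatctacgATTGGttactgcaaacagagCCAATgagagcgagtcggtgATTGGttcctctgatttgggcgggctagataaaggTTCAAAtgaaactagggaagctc
Cdc20: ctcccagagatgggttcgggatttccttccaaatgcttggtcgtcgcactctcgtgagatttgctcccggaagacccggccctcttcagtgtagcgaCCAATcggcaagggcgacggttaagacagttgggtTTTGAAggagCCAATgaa
Cdk1: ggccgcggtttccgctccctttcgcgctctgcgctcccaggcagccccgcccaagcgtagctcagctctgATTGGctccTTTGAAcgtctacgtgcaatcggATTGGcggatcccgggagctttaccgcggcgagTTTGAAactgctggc
Top2a lies on the minus strand of chromosome 11 (window 99024190 to 99024339), Cdc20 on the minus strand of chromosome 4 (118437344 to 118437493) and Cdk1 on the minus strand of chromosome 10 (69352913 to 69353062). Cdc20, the activator of the anaphase-promoting complex, fell from 59.4 and 52.6 CPM to 25.3 and 21.8 CPM (log2 fold change -1.25 ± 0.10, adjusted p = 1.83e-07). Cdk1, the kinase that drives entry into mitosis, fell from 81 and 80.6 CPM to 39.4 and 40.7 CPM (log2 fold change -1.01 ± 0.068, adjusted p = 2.81e-08).

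DNA replication followed, with 29 of 33 genes lower, none higher and a median of -0.783. The thymidine kinase Tk1 measured 32.9 and 30.9 CPM with TGF-alpha and 10.8 and 8.56 with gefitinib added (log2 fold change -1.71 ± 0.13, adjusted p = 7.33e-08), the helicase subunit Mcm5 54.8 and 55.6 CPM with TGF-alpha and 22.6 and 18.6 with gefitinib added (log2 fold change -1.42 ± 0.10, adjusted p = 6.61e-08), and the ribonucleotide reductase subunit Rrm2 93.4 and 84 CPM with TGF-alpha and 36.7 and 36.5 with gefitinib added (log2 fold change -1.28 ± 0.075, adjusted p = 6.79e-09). None of these pairs overlapped, which held for 5215 of the 5217 called genes. The 4 members that did not pass were Gins1, Orc6, Tyms and E2f1, with log2 changes of -0.46 ± 0.35, -0.075 ± 0.14, -0.34 ± 0.14 and -0.10 ± 0.085. The E2F letters TTCCCGC were in 6 of 27 windows (22.2%, against 7.13% of all) and TTTGGCGC in 3 of 27 (11.1%, against 0.861%). DNA repair and checkpoint genes fell in 14 of 20 cases and none rose, but 8 were called without TGF-alpha replicate 1. Clspn, an adaptor of the replication checkpoint, measured 27.3 and 22 CPM with TGF-alpha and 8.7 and 7.92 with gefitinib added (log2 fold change -1.56 ± 0.15, adjusted p = 1.25e-06) and the Fanconi anaemia gene Fancd2 measured 14.5 and 12.3 CPM with TGF-alpha and 5.55 and 5.52 with gefitinib added (log2 fold change -1.27 ± 0.18, adjusted p = 5.08e-05).

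Of 17 upstream cell cycle regulators 3 were higher (17.6%, against 17% of all tested genes) and 6 lower (35.3%, against 16.9%). Ccnd1, cyclin D1, measured 371 and 355 CPM with TGF-alpha and 176 and 169 with gefitinib added (log2 fold change -1.07 ± 0.049, adjusted p = 4.54e-10), near its control level of 185 and 188 CPM. Ccnd2, named after its values were seen, stayed at 469 and 457 CPM with TGF-alpha and 474 and 478 with gefitinib added (log2 fold change 0.040 ± 0.044, adjusted p = 0.538; 95% interval -0.055 to 0.13). The inhibitor Cdkn1c, p57, rose from 138 and 163 CPM to 360.3 and 336 CPM (log2 fold change 1.21 ± 0.067, adjusted p = 3.15e-09), and the INK4 inhibitor Cdkn2c fell with the cycle genes (log2 fold change -0.72 ± 0.070, adjusted p = 1.66e-06). Of 22 p53 targets 12 rose and 3 fell, with a median of 0.299. Gdf15, a stress cytokine, measured 6.2 and 9.6 CPM with TGF-alpha and 21.1 and 20.3 with gefitinib added (log2 fold change 1.39 ± 0.16, adjusted p = 1.06e-05), and Plk2 fell (log2 fold change -0.97 ± 0.058, adjusted p = 8.89e-09). In the BCL2 family 6 of 13 rose and 3 fell, and the rises numbered 2 without TGF-alpha replicate 1 and 3 without TGF-alpha plus gefitinib replicate 1. Bax, a pore-forming death protein, rose from 90.6 and 100.5 CPM to 144 and 142 CPM (log2 fold change 0.58 ± 0.062, adjusted p = 3.89e-06), while the ERK-restrained death gene Bcl2l11 fell (log2 fold change -0.82 ± 0.16, adjusted p = 0.00107).

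Most genes of amino acid supply and the ATF4 stress response rose. Of 31 members 26 rose and 2 fell, with a median of 0.618. The transcription factor gene Atf4 measured 327 and 317 CPM with TGF-alpha and 552 and 546 with gefitinib added (log2 fold change 0.77 ± 0.044, adjusted p = 4.73e-09), and its controls read 539 and 540.5 CPM. Its target Ddit3, coding for CHOP, measured 98.7 and 106 CPM with TGF-alpha and 276 and 294 with gefitinib added (log2 fold change 1.47 ± 0.057, adjusted p = 5.95e-11), and the target Trib3, a pseudokinase, 148 and 154 CPM with TGF-alpha and 315 and 309 with gefitinib added (log2 fold change 1.05 ± 0.049, adjusted p = 4.83e-10). Chac1, a glutathione-degrading enzyme, measured 54.6 and 64.2 CPM with TGF-alpha and 170.5 and 151 with gefitinib added (log2 fold change 1.44 ± 0.078, adjusted p = 2.79e-09). Atf4 differed from the control by 0.024 ± 0.043, whereas Ddit3 exceeded its control level of 159 and 156 CPM (log2 fold change 0.85 ± 0.055, adjusted p = 3.46e-07). The members that fell, named after their values were seen, were Psat1 (-0.18 ± 0.059) and Cebpb (-0.76 ± 0.079).

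The ATF4 letters TGATGNAA were in 7 of 26 matched promoter windows of this list (26.9%), against 1.92% of all 9760. Windows of 150 bases before the start are printed for 3 of them, chosen as a tRNA synthetase, a secreted hormone and an amino acid transporter, with the matching letters on either strand in capitals.
Aars: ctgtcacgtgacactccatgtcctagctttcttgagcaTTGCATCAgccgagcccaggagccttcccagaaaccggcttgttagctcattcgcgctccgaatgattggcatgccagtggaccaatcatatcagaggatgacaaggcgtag
Fgf21: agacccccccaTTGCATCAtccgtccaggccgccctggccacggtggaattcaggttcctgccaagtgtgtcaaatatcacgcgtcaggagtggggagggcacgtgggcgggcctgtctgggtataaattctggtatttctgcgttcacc
Slc7a11: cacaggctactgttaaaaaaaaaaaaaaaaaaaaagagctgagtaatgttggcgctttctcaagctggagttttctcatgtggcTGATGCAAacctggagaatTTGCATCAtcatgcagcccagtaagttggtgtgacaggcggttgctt
The Aars window lies on the plus strand of chromosome 8 (111033692 to 111033841), that of Fgf21 on the minus strand of chromosome 7 (45615491 to 45615640) and that of Slc7a11 on the minus strand of chromosome 3 (50443614 to 50443763). Aars, alanyl-tRNA synthetase, measured 349.8 and 343 CPM with TGF-alpha and 527 and 523 with gefitinib added (log2 fold change 0.60 ± 0.043, adjusted p = 5.97e-08). Fgf21, a stress-induced hormone, measured 2.38 and 4.87 CPM with TGF-alpha and 15.5 and 13.7 with gefitinib added (log2 fold change 2.01 ± 0.23, adjusted p = 7.21e-06). Slc7a11, which imports cystine, measured 3.25 and 2.91 CPM with TGF-alpha and 5.69 and 4.8 with gefitinib added (log2 fold change 0.77 ± 0.22, adjusted p = 0.0144) and remained below its control level of 9.44 and 8.66 CPM.

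Glycolysis genes fell in 16 of 22 cases and rose in 2, with a median of -0.474. Pkm, pyruvate kinase, measured 2285 and 2223 CPM with TGF-alpha and 1374 and 1321 with gefitinib added (log2 fold change -0.74 ± 0.042, adjusted p = 4.78e-09). Gpi1 (-0.72 ± 0.045), Pfkp (-0.95 ± 0.062) and Tpi1 (-0.54 ± 0.041) fell within 2-fold. None of the 22 was called lower than the control and 7 were called higher, where 9.52% of all tested genes were called in either direction. Of 21 hypoxia and vessel genes 12 fell and 2 rose: Epas1, the HIF-2 alpha subunit, measured 50.7 and 46.4 CPM with TGF-alpha and 17.5 and 18.7 with gefitinib added (log2 fold change -1.42 ± 0.10, adjusted p = 2.89e-08), and the endothelin receptor Ednrb 47.9 and 48.6 CPM with TGF-alpha and 14.2 and 13 with gefitinib added (log2 fold change -1.83 ± 0.10, adjusted p = 3.09e-09). Angpt1, the ligand angiopoietin 1, rose instead (log2 fold change 1.02 ± 0.075, adjusted p = 7.60e-08). Car9, the hypoxia-induced carbonic anhydrase, fell from 385 and 399 CPM to 168 and 160.0 CPM (log2 fold change -1.26 ± 0.050, adjusted p = 9.67e-11), whereas Car3 measured 0.793 and 0.145 CPM with TGF-alpha and 11.9 and 9.75 with gefitinib added (log2 fold change 4.50 ± 0.37, adjusted p = 2.27e-07) and had the largest fitted rise of any called gene averaging 5 CPM or more, from 11 and 2 reads in the TGF-alpha libraries. Of 8 carbonic anhydrases in all, 1 rose and 3 fell. Nuclear-encoded oxidative phosphorylation subunits rose in 6 of 24 cases and none fell, with Sdhb (0.37 ± 0.063) and Cox4i1 (0.27 ± 0.055) among them.

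Sterol and lysosome genes were set apart by where the gefitinib libraries stood relative to the control. Among 33 genes of sterol and fatty acid synthesis, 17 fell and 7 rose against TGF-alpha alone, with a median of -0.288. Against the control, 20 of the 33 were higher and none lower, where 9.52% of all tested genes were called in either direction. This count was not repeated with other methods. The summed CPM of the list were 2848 and 2825 in the controls, 3543 and 3537 with TGF-alpha, and 4040 and 3870 with gefitinib added. The TGF-alpha libraries thus already stood above the controls. The regulator gene Srebf1 measured 206 and 228 CPM with TGF-alpha and 532 and 500.0 with gefitinib added, with 310.1 and 309 CPM in the controls (log2 fold change 1.25 ± 0.055, adjusted p = 2.83e-10 against TGF-alpha and 0.74 ± 0.054 against the control). The fatty acid desaturases Fads1 (0.57 ± 0.047) and Fads2 (0.63 ± 0.055) and the carboxylase Acaca (0.76 ± 0.073) rose against TGF-alpha, while the genes of the cholesterol branch that changed fell. Hmgcs1, of that branch and named after its values were seen, fell from 96.9 and 102 CPM to 67.3 and 61.5 CPM (log2 fold change -0.62 ± 0.066, adjusted p = 3.49e-06), and read 58.7 and 57.1 CPM in the controls. The sterol element letters TCACNCCAC were in 1 of 21 windows (4.76%, against 0.973% of all).

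Of 30 lysosome and autophagy genes, 20 rose and 3 fell against TGF-alpha, with a median of 0.321. Against the control 26 were higher and none lower, where 9.52% of all tested genes were called in either direction. This count, too, was not repeated with other methods. The summed CPM of the list were 5322 and 5282 in the controls, 6133 and 6390 with TGF-alpha, and 7878 and 8102 with gefitinib added. Gpnmb, a lysosomal glycoprotein (chromosome 6, 49036518 to 49058182), measured 43.7 and 44.5 CPM with TGF-alpha and 103 and 99.1 with gefitinib added and 19.5 and 19 CPM in the controls (log2 fold change 1.19 ± 0.067, adjusted p = 3.73e-09 against TGF-alpha and 2.39 ± 0.073 against the control). Its order was control, TGF-alpha, gefitinib added, with no overlap between any of the 3 pairs. Neu1, lysosomal sialidase, measured 29.9 and 34.8 CPM with TGF-alpha and 83.8 and 84.6 with gefitinib added (log2 fold change 1.38 ± 0.079, adjusted p = 4.76e-09), Ctsd, cathepsin D, 1382 and 1436 CPM with TGF-alpha and 2066 and 2131 with gefitinib added (log2 fold change 0.57 ± 0.042, adjusted p = 6.68e-08), and Lamp1, a membrane protein of the organelle, 489 and 494 CPM with TGF-alpha and 706 and 722 with gefitinib added (log2 fold change 0.54 ± 0.042, adjusted p = 1.47e-07). The members that fell were the transcription factors Tfeb (-0.96 ± 0.14), Tfe3 (-0.33 ± 0.071) and Mitf (-1.05 ± 0.21), which are known to drive lysosome genes and were named after their values were seen. Without TGF-alpha plus gefitinib replicate 2, 5 members were called lower. Of 19 lipid droplet genes 7 rose and 3 fell. The fatty acid binding gene Fabp5 measured 7.07 and 8.51 CPM with TGF-alpha and 22 and 23.3 with gefitinib added, above controls of 10.5 and 11.8 CPM (log2 fold change 1.54 ± 0.14, adjusted p = 5.94e-07; 1.01 ± 0.13 against the control), and the droplet coat gene Plin4 did likewise (log2 fold change 1.23 ± 0.15, adjusted p = 1.60e-05; 1.45 ± 0.15 against the control).

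**Figure D4:**
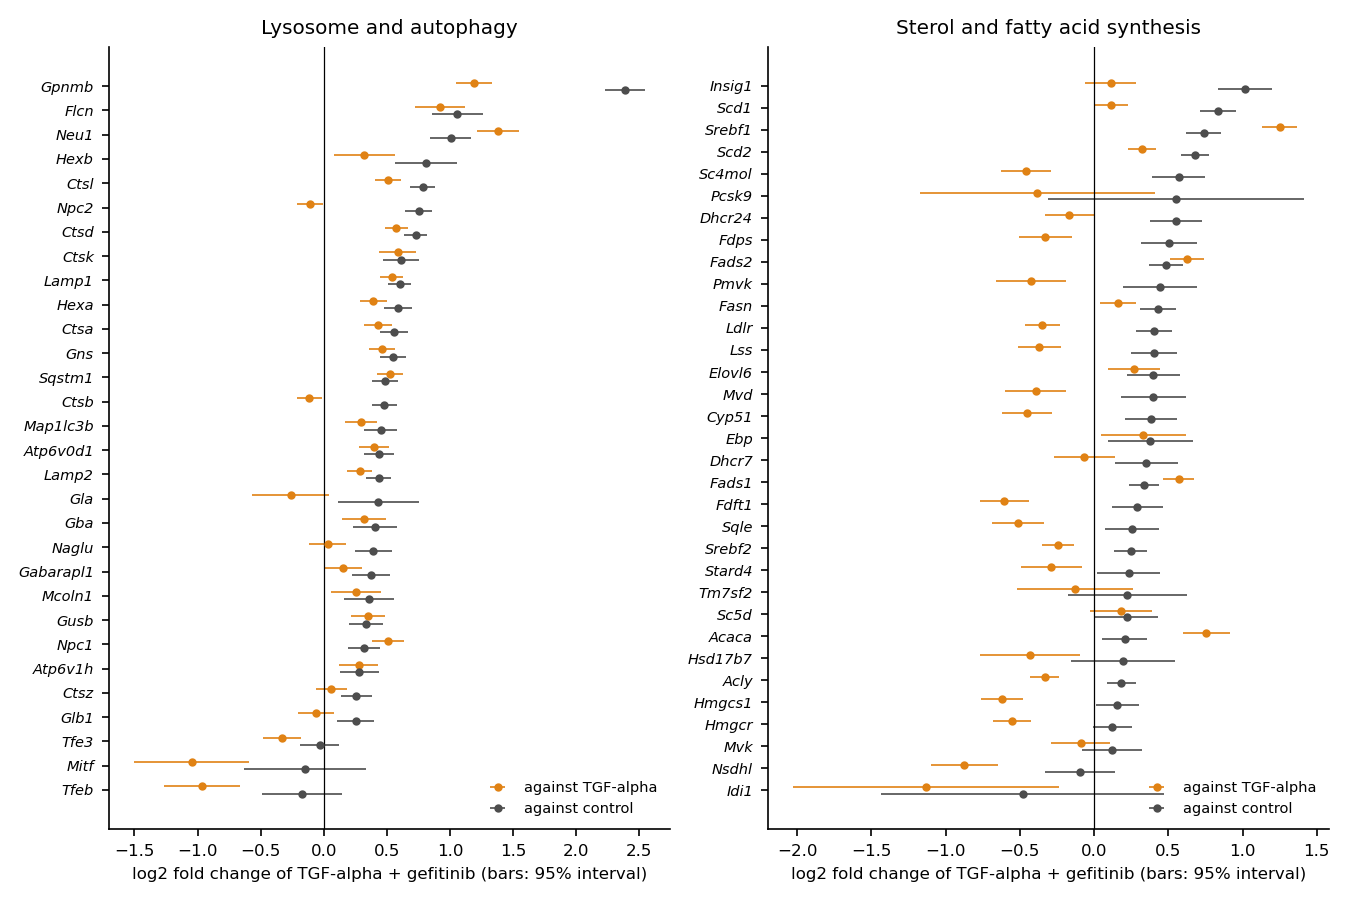
Points are log2 fold changes of the gefitinib libraries with 95% intervals for the tested members of both lists, against TGF-alpha (orange) and against the control (dark grey). In the lysosome list 26 members were called higher than the control, and in the sterol list 20 were, while 17 sterol members were called lower than with TGF-alpha.

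Most called genes of inflammatory signalling fell. Of 17 interleukin receptor and SOCS genes 12 fell and 1 rose. Il1rl1, the receptor of interleukin 33, measured 151 and 142 CPM with TGF-alpha and 9.04 and 9.51 with gefitinib added (log2 fold change -3.98 ± 0.086, adjusted p = 2.22e-13), with controls of 13.1 and 14.4 CPM. Il13ra1 measured 55.6 and 52.5 CPM with TGF-alpha and 10.6 and 11.8 with gefitinib added (log2 fold change -2.27 ± 0.10, adjusted p = 4.38e-10), Il4ra 95.8 and 93.4 CPM with TGF-alpha and 24.8 and 28.4 with gefitinib added (log2 fold change -1.83 ± 0.080, adjusted p = 2.56e-10), and the shared interleukin 6 family receptor Il6st 1321 and 1279 CPM with TGF-alpha and 703 and 693 with gefitinib added (log2 fold change -0.90 ± 0.042, adjusted p = 5.12e-10). Il1rl1 and Il6st ended under their controls (-0.57 ± 0.11 and -0.53 ± 0.042). Chemokines and cytokines fell in 8 of 15 cases and rose in 1, with 5 falls at a minimum count of 50. Cx3cl1, fractalkine, measured 168 and 158 CPM with TGF-alpha and 41 and 34.9 with gefitinib added (log2 fold change -2.10 ± 0.091, adjusted p = 2.39e-10) and the neutrophil attractant Cxcl5 measured 59.1 and 60.3 CPM with TGF-alpha and 13.8 and 13.8 with gefitinib added (log2 fold change -2.11 ± 0.092, adjusted p = 2.43e-10). Interferon-stimulated genes fell in 11 of 24 cases and rose in 3. Without TGF-alpha replicate 2 the falls numbered 6, and without TGF-alpha replicate 1 there was no rise. Isg15 measured 9.81 and 13.3 CPM with TGF-alpha and 5.55 and 4.96 with gefitinib added (log2 fold change -1.13 ± 0.20, adjusted p = 4.30e-04).

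Of 16 prostaglandin and lysophosphatidic acid genes 2 rose and 7 fell. Ptgs2, the inducible cyclooxygenase, measured 17.5 and 18.5 CPM with TGF-alpha and 3.7 and 4.24 with gefitinib added (log2 fold change -2.18 ± 0.16, adjusted p = 7.81e-08) and fell under its control of 8.35 and 7.77 CPM (-1.02 ± 0.17). Ptger1, a receptor of prostaglandin E2, also fell (log2 fold change -2.42 ± 0.27, adjusted p = 5.72e-06), and Ptgis, prostacyclin synthase, rose (log2 fold change 0.67 ± 0.075, adjusted p = 5.55e-06). Enpp2, coding for autotaxin, which makes lysophosphatidic acid (chromosome 15, 54838901 to 54952789), measured 13 and 15.1 CPM with TGF-alpha and 98.3 and 100.2 with gefitinib added (log2 fold change 2.82 ± 0.083, adjusted p = 4.02e-12). Its controls read 51.5 and 52.5 CPM, so the gefitinib libraries stood above both other groups (0.93 ± 0.070 against the control).

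Sfrp2 and Nog, genes of secreted antagonists of Wnt and BMP, were among the largest rises. Sfrp2, a Wnt-binding protein, measured 22.1 and 25.5 CPM with TGF-alpha and 237 and 239.9 with gefitinib added (log2 fold change 3.32 ± 0.070, adjusted p = 2.22e-13), and Frzb, of the same family, 51.2 and 60.3 CPM with TGF-alpha and 138 and 133 with gefitinib added (log2 fold change 1.28 ± 0.071, adjusted p = 3.30e-09). Neither reached its control pair (343 and 322 CPM for Sfrp2). Of the 11 Wnt antagonists 3 were higher and 3 lower, the last being Dkk3, Notum and Kremen1. Of the 18 Wnt ligands and targets 4 were higher (22.2%, against 17% of all tested genes) and 3 lower (16.7%, against 16.9%). Nkd1, an inhibitor of the pathway, rose (log2 fold change 1.61 ± 0.12, adjusted p = 7.90e-08) and the ligand Wnt10a fell (log2 fold change -3.19 ± 0.34, adjusted p = 3.53e-06). Of 32 BMP and Id genes 10 rose and 7 fell. Nog, the BMP antagonist noggin, measured 4.69 and 2.4 CPM with TGF-alpha and 25.5 and 25.4 with gefitinib added (log2 fold change 2.84 ± 0.19, adjusted p = 2.40e-08), Chrdl1 14.1 and 17.2 CPM with TGF-alpha and 72.2 and 74.1 with gefitinib added (log2 fold change 2.22 ± 0.089, adjusted p = 9.67e-11) and Bmp4 itself 53.6 and 56.7 CPM with TGF-alpha and 125 and 138 with gefitinib added (log2 fold change 1.25 ± 0.064, adjusted p = 1.53e-09). Bmp4 and these antagonists thus rose in the same libraries. Of the other ligand genes in the list Gdf10 rose and Bmp5, Gdf6 and Inhba fell, while Bmp2, Bmp6, Bmp7 and Inhbb were not called.

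TGF-beta genes fell in 11 of 20 cases and rose in 4. Ltbp1, Ltbp2, Ltbp3 and Ltbp4, of the latent binding protein family that holds TGF-beta in the matrix, were all called lower. Only 3 members of the whole list fell at least 2-fold. Ltbp1 measured 556 and 525 CPM with TGF-alpha and 113 and 109.5 with gefitinib added (log2 fold change -2.28 ± 0.055, adjusted p = 6.56e-13) and Ltbp2 442 and 429 CPM with TGF-alpha and 96.9 and 92.5 with gefitinib added (log2 fold change -2.20 ± 0.062, adjusted p = 3.42e-12). Tgfb2 rose (log2 fold change 1.07 ± 0.063, adjusted p = 6.80e-09), and the receptor gene Tgfbr2 was among the steadiest highly expressed genes, at 318 and 323 CPM with TGF-alpha and 322 and 322 with gefitinib added (log2 change 0.0067 ± 0.045, 95% interval -0.089 to 0.10). Of 13 FGF ligands and receptors 6 rose and 3 fell. Fgfr3, the receptor that restrains growth plate chondrocytes, measured 159 and 172 CPM with TGF-alpha and 562 and 540.1 with gefitinib added (log2 fold change 1.74 ± 0.052, adjusted p = 4.51e-12), above its controls of 460.3 and 472 CPM (0.24 ± 0.049). Fgfr2 rose (log2 fold change 0.89 ± 0.044, adjusted p = 9.87e-10) and Fgfr1 fell (log2 fold change -0.61 ± 0.048, adjusted p = 1.43e-07), so the 3 receptors did not move together. In the IGF axis 7 of 19 rose and 6 fell, with Igfbp5 (0.72 ± 0.040), Igfbp4 (0.79 ± 0.047) and the protease Pappa (1.01 ± 0.052) higher and Igfbp6 (-1.16 ± 0.085) lower.

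Other pathway lists had few calls or members in both directions. Notch genes fell in 3 of 10 cases and none rose, with Lfng, a glycosyltransferase of Notch, at 10.0 and 9.6 CPM with TGF-alpha and 3.15 and 2.32 with gefitinib added (log2 fold change -1.83 ± 0.24, adjusted p = 3.52e-05). Ephrins and Eph receptors rose in 5 of 17 cases and fell in 1, Epha2 (log2 fold change -0.36 ± 0.053, adjusted p = 9.58e-05). The 9 hedgehog genes split into 3 that rose, 3 that fell and 3 not called, with Smo (0.37 ± 0.048) and Boc (0.46 ± 0.058) higher and Gli3 (-0.45 ± 0.077) lower. Among 18 genes of the FoxO list, the factors themselves and genes known to be restrained by PI3K-AKT, 5 rose (27.8%, against 17% of all tested genes) and 3 fell (16.7%, against 16.9%). Pik3ip1, an inhibitor of PI3K, measured 23.9 and 28.9 CPM with TGF-alpha and 45.4 and 50.3 with gefitinib added (log2 fold change 0.86 ± 0.10, adjusted p = 9.75e-06), and Klf15 rose (log2 fold change 1.15 ± 0.12, adjusted p = 2.24e-06), but Txnip (log2 fold change -0.69 ± 0.044, adjusted p = 1.59e-08) and Foxo1 (log2 fold change -0.55 ± 0.089, adjusted p = 2.24e-04) fell. Among 23 cytoskeletal genes of SRF and YAP, 7 rose and 9 fell, and without TGF-alpha replicate 2 the rises numbered 4. Acta2, smooth muscle actin, measured 155 and 148 CPM with TGF-alpha and 435 and 473 with gefitinib added (log2 fold change 1.58 ± 0.062, adjusted p = 7.41e-11), while the receptor Axl fell (log2 fold change -1.32 ± 0.061, adjusted p = 4.83e-10). Of 29 primary cilium genes 3 rose (10.3%, against 17% of all tested genes) and 5 fell (17.2%, against 16.9%), with 3 falls when TGF-alpha replicate 1 or replicate 2 was left out.

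Redox, metal and hormone genes held several values outside the range of both other groups. Among 22 genes of the aryl hydrocarbon receptor and NRF2, targets and the factors Ahr, Arnt and Nfe2l2 themselves, 5 rose and 10 fell, Ahr and Nfe2l2 among the latter. Gpx3, a secreted glutathione peroxidase, measured 8.94 and 9.31 CPM with TGF-alpha and 56.3 and 59.8 with gefitinib added with controls of 19.4 and 19.8 CPM (log2 fold change 2.67 ± 0.10, adjusted p = 4.99e-11; 1.56 ± 0.091 against the control). Hmox1, heme oxygenase 1, rose to 191 and 194 CPM from 90.0 and 89.1 CPM (log2 fold change 1.11 ± 0.053, adjusted p = 7.55e-10; 0.76 ± 0.052 against the control). Ahr, the receptor gene itself, measured 120.3 and 115 CPM with TGF-alpha and 30.8 and 29.3 with gefitinib added with controls of 59.4 and 59.7 CPM (log2 fold change -1.97 ± 0.067, adjusted p = 1.62e-11; -0.99 ± 0.070 against the control). Ahr therefore ended lowest with gefitinib added, and Gpx3 and Hmox1 highest. In the list of 11 metallothioneins and zinc transporters 2 rose and 5 fell. The metallothioneins Mt1 and Mt2, which bind zinc, were an intermediate case. Mt1 measured 139.8 and 148 CPM with TGF-alpha and 85.2 and 83.7 with gefitinib added and 26.6 and 28.1 CPM in the controls, lower than with TGF-alpha (log2 fold change -0.77 ± 0.060, adjusted p = 1.36e-07) and still above the control (1.62 ± 0.069). Mt2 behaved alike (log2 fold change -1.46 ± 0.065, adjusted p = 2.83e-10; 1.40 ± 0.077 against the control). Of 11 thyroid hormone and glucocorticoid genes 3 rose and 4 fell. Dio3, which inactivates thyroid hormone, fell from 15.6 and 13.9 CPM to 1.44 and 2.16 CPM, under controls of 4.68 and 4.9 CPM (log2 fold change -3.05 ± 0.22, adjusted p = 6.53e-08). Of 13 multidrug and solute transporters 3 rose and 4 fell, with the prostaglandin carrier Slco2a1 at 58.6 and 56.3 CPM with TGF-alpha and 23 and 23.8 with gefitinib added (log2 fold change -1.30 ± 0.085, adjusted p = 2.20e-08).

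The largest single changes included genes with no cartilage role in the lists. Nptx1, coding for a synaptic pentraxin (chromosome 11, 119538719 to 119547820), measured 129.7 and 128 CPM with TGF-alpha and 4.8 and 2.0 with gefitinib added (log2 fold change -5.20 ± 0.17, adjusted p = 1.04e-11). Unc13c measured 21.5 and 19.7 CPM with TGF-alpha and 0.548 and 0.64 with gefitinib added (log2 fold change -5.10 ± 0.24, adjusted p = 5.39e-10) and the activity-regulated gene Arc 27 and 26.6 CPM with TGF-alpha and 1.23 and 1.04 with gefitinib added (log2 fold change -4.54 ± 0.20, adjusted p = 2.94e-10). These are the 3 largest falls among called genes averaging 5 CPM or more. All belong to the list of neuronal secretion and synaptic genes, where 8 of 17 fell and 3 rose. That list was chosen with earlier results of these data known, so their membership adds no support for a neuronal theme. Of its 28 listed genes, 11 had too few counts to be tested. Syt1, a calcium sensor of vesicle release in the same list, had the next largest rise after Car3, at 0.793 and 0.654 CPM with TGF-alpha and 10.4 and 10.4 with gefitinib added (log2 fold change 3.83 ± 0.25, adjusted p = 2.19e-08). Other large falls were Gcnt4 (-3.92 ± 0.24), Chst1 (-3.82 ± 0.18), Pkp1 (-3.33 ± 0.28), Ace (-3.26 ± 0.11) and Kcnn4 (-3.18 ± 0.26). Other large rises were Npr3, the natriuretic peptide clearance receptor, at 20.3 and 20.1 CPM with TGF-alpha and 184 and 191 with gefitinib added (log2 fold change 3.21 ± 0.064, adjusted p = 1.83e-13), Upb1 (3.15 ± 0.32), Tmtc1 (3.08 ± 0.16), Kcne4 (3.04 ± 0.13), Bdh1 (2.90 ± 0.25) and Adra2a (2.77 ± 0.29). Of the 15 largest falls 10 had a promoter window, and 1 of these held the AP-1 letters.

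Some highly expressed genes were steady. The 10 genes averaging 200 CPM or more whose intervals reached least far from 0 included Hdlbp (1385 and 1356 CPM with TGF-alpha and 1379 and 1369 with gefitinib added, 95% interval -0.082 to 0.090). Others of the 10 were Rpn1 (-0.092 to 0.10), the coatomer gene Copb2 (-0.10 to 0.10), the chaperone Pdia4 (-0.085 to 0.11) and Ext2, which elongates heparan sulfate (-0.10 to 0.10). Of 36 cytosolic ribosomal protein genes 4 rose and 2 fell, under the share of all tested genes in either direction, and for 18 of them the interval lay within 1.2-fold. The number of these genes called higher ran from 1 without TGF-alpha replicate 1 to 7 without TGF-alpha plus gefitinib replicate 1, and 5 were called lower without TGF-alpha plus gefitinib replicate 2. Ribosome biogenesis genes rose in 9 of 25 cases and none fell, with Rrp12 (0.57 ± 0.10) and Rrp9 (0.50 ± 0.10) among them.

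**Figure D5:**
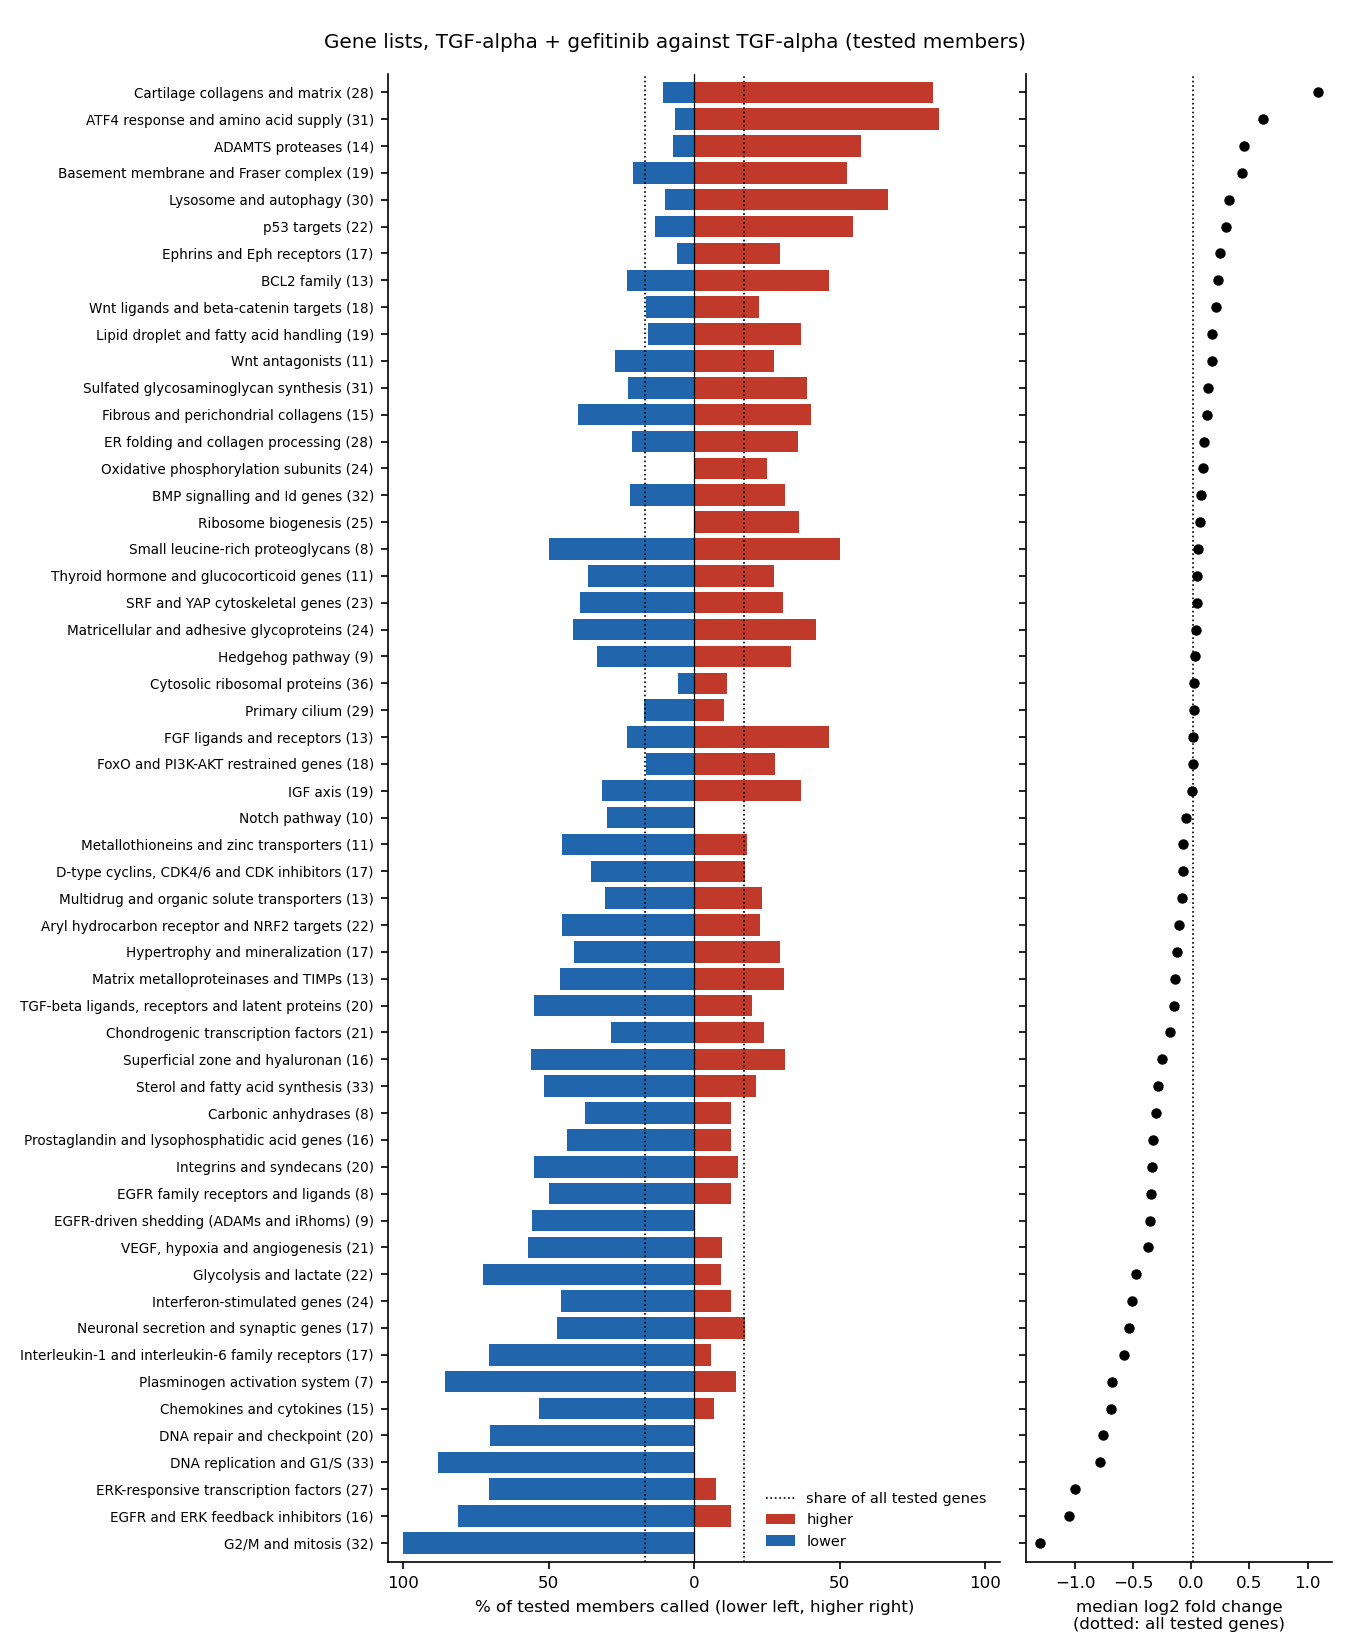
For each of 55 gene lists the left panel shows the percent of tested members (number in brackets) called lower or higher with gefitinib added, with dotted lines at the shares of all tested genes, 16.9% and 17%. The right panel shows each list's median log2 fold change, from -1.30 for mitosis to 1.09 for cartilage matrix, beside 0.0131 for all tested genes.

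All 9 chondrocyte markers were tested, and all 9 rose with gefitinib added, from a summed 33042 to 34109 CPM up to 55876 to 58327 CPM. All but Sox9 also belong to the cartilage matrix list above, so their rise repeats that result and is no check of cell identity. Markers of other cell types also moved. Control sums were 67609 and 63234 CPM for chondrocyte markers, 886 and 892 CPM for fibroblast and perichondrium markers and 639 and 646 CPM for osteoblast markers. They were 31.4 and 35.8 CPM for smooth muscle and pericytes, 65.9 and 66.7 CPM for osteoclasts and 85.5 and 79.7 CPM for Schwann cells and neurons. The osteoblast sum with gefitinib added, given below, stayed under its controls. Of 14 tested fibroblast and perichondrium markers 4 rose and 5 fell, and their sum went from 1289.7 to 1327 CPM down to 844 to 869 CPM, with Pdgfra at 329 and 326 CPM with TGF-alpha and 122 and 114 with gefitinib added (log2 fold change -1.47 ± 0.052, adjusted p = 2.28e-11) and S100a4 falling (log2 fold change -1.92 ± 0.071, adjusted p = 3.81e-11). Of 10 osteoblast markers 7 rose and 2 fell (none fell in DESeq2 or when TGF-alpha replicate 1, or either replicate of TGF-alpha plus gefitinib, was left out, and 1 without TGF-alpha replicate 2 or either control library), and their sum went from 215 to 226 CPM up to 459.6 to 466 CPM. Smooth muscle and pericyte markers summed to 16.7 to 17.5 CPM and then 26.9 to 28.1 CPM, with 2 higher and 2 lower of 7. In DESeq2, and without TGF-alpha replicate 1, 1 was higher and none lower, and leaving out any other library left 1 or 2 higher and 1 lower. Tendon and ligament markers, of which 2 rose and 3 fell of 6, summed to 288 to 316 CPM and then 76.4 to 81.3 CPM, most of it Egr1, an ERK target too. The rises numbered 1 in DESeq2 and when either TGF-alpha replicate or TGF-alpha plus gefitinib replicate 2 was left out. Of 4 tested macrophage markers 2 rose and 2 fell, with sums of 12.5 to 16.5 CPM and then 8.77 to 10.7 CPM. Without TGF-alpha replicate 1 none of the 4 was higher and 1 was lower, and without TGF-alpha plus gefitinib replicate 1 there was 1 each way. In DESeq2, and without TGF-alpha replicate 2 or either control library, 2 were higher and 1 lower. Of 3 Schwann cell and neuron markers 2 rose, with sums of 66.7 to 68.5 CPM and then 116 to 122 CPM, among them S100b (0.82 ± 0.064), which chondrocytes are also known to express. The number called was 1 in DESeq2 and when TGF-alpha replicate 1, or either replicate of TGF-alpha plus gefitinib, was left out. The osteoclast list had 2 tested genes, of which Ctsk rose (log2 fold change 0.59 ± 0.068, adjusted p = 9.06e-06), and its sum went from 64.5 to 72 CPM up to 101 to 103 CPM. Of 2 tested endothelial genes 1 fell, with sums of 4.83 to 7.63 CPM and then 2.48 to 5.96 CPM. Of 2 epithelial genes 1 fell, with sums of 6.4 to 8.51 CPM and then 3.04 to 3.97 CPM. None of the 3 adipocyte genes or the 2 skeletal muscle genes tested was called. The part of these cells in the results was not tested. Several untested markers of blood and vessel cells were at or near 0. The macrophage genes Ptprc, Itgam and Tyrobp and the endothelial genes Cdh5, Tie1 and Emcn had no count in any library. No erythroid or neutrophil marker had over 6 counts in a library. Other members of the same lists did have enough counts to be tested, the macrophage genes Cd68, Cd14, Lyz2 and Laptm5 and the endothelial genes Flt1 and Egfl7.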

How the data were processed

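RNA sequencing was done on 6 libraries, 2 each of control, TGF-alpha and TGF-alpha plus gefitinib. The deposited table holds raw counts per gene symbol; per the submitters' processing notes the genome build was GRCm 38, and how reads were aligned and counted, and with which strand setting, is not given in the sources used. Genes passing edgeR's filter (minimum count 10) were tested with TMM scaling and edgeR 4.0.16 quasi-likelihood tests (R 4.3.3) in 1 fit of all 6 libraries with group as the sole term, so the control libraries share in the estimate of the spread. Benjamini-Hochberg adjustment ran over the 15362 genes tested, with calls at an adjusted p under 0.05. Standard errors are the log2 fold change divided by the square root of F, and intervals are 95%. DESeq2 1.42.0 (Wald test), other scalings, other filters and leaving out each library were alternatives. Counts were also simulated with known changes in 200 genes, and 15090 to 15097 genes were tested in each run. The procedure recovered 18.8% of 1.25-fold, 56.8% of 1.5-fold, 75.6% of 2-fold and 92.8% of 4-fold changes, with 5.13% false calls. Far more genes, 5217, were called in the data, so these rates need not hold there.

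Total counts of 12317407 to 16096263 set the precision. Depth covers counting error only.

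Named genes were the 15 largest rises and falls with a mean of at least 5 CPM, the 12 largest CPM gains and losses, up to 4 called members per list by p, Egfr and Tgfa, and the 10 steadiest genes of at least 200 CPM. The members and the 55 pathway and 14 marker lists were chosen with earlier results of these data known. Rn7s1, Rn7s2, Aars, Fgf21, Slc7a11, Cdc20, Cdk1, and the members given as exceptions or not called were chosen after their values were seen. Gene symbols that are near-identical copies or overlap another gene could share reads. Promoter windows and coordinates came from RefSeq (GRCm38.p6), matched by symbol for 14062 of the tested genes.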

Additional observations from a re-analysis of the deposited data

How the results depend on the processing

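Between gefitinib added and TGF-alpha alone, no gene called in both a setting and the reported fit changed sign. The settings share most or all libraries with that fit, so a change of sign was unlikely from the start. The 5217 calls became 5207 with relative log expression scaling, 5244 with upper quartile scaling, 5484 with no filter, 4894 at a minimum count of 50, 4907 with the 4 libraries alone and 3700 in DESeq2. With the replicate number as a block there were 5042 calls (2513 higher and 2529 lower); same-numbered libraries did not deviate together (correlations -0.0228 to 0.0108), so the numbers do not pair them. Leaving out 1 library gave 3703 to 4950 calls, 1800 to 2476 higher and 1903 to 2492 lower, with the lone remaining library of a group assumed to vary like the others. Testing against a change of 1.2-fold left 2669 calls, 1202 higher and 1467 lower, and 277 against the control; a larger change is asked for there. Against the control, the 1463 calls became 951 in DESeq2 and 649 to 1291 when 1 library was left out, with 666 without control replicate 1, 649 without control replicate 2 and 893 without TGF-alpha plus gefitinib replicate 2; the cause was not tested. Of the counts of list members, 152 moved by over 1.5 times, 50 of them in the 1.2-fold test, where lysosome genes called higher went from 20 to 13, sterol genes called lower from 17 to 7, p53 targets called higher from 12 to 6 and TGF-beta genes called lower from 11 to 6. A total of 108 of the 152 had a reported count of 3 or fewer. Of the values of single named genes, 4466 kept their side of the threshold and 81 did not, and no called one changed sign. With 2 libraries a group, small changes can be missed: simulated 1.25-fold changes were recovered in 18.8% of cases. That simulation changed 200 genes, far fewer than the 5217 called here, so the rate need not hold for this comparison.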
